A study of Oryctolagus cuniculus with 9 samples.

Results

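Lysosome genes were followed in rabbit (Oryctolagus cuniculus) vocal fold tissue. They were taken as the rows of the deposited gene table whose KEGG pathway entry includes Lysosome, without CD68, SLC11A1 and SLC11A2, which gives 147 genes of the 20525 in the table. Polyadenylated RNA was sequenced from 3 groups with 3 libraries each. The SOT group was injured and given a hydrogel called SOT, the untreated group was injured and left without treatment, and the normal group was not injured. The sample titles of both injured groups give a time of 1 week and do not name its starting point. The labels give no strain, sex, age or dose for any group, do not expand the name SOT, and name no carrier gel without SOT as a control. Whether replicates are separate animals is not stated, so p-values measure the spread between these libraries, which may be technical. The label for cell type speaks of vocal cord histiocytes, while the libraries held transcripts of several tissues: summed skeletal muscle markers were at 8011, 1699 and 8039 CPM in SOT folds, 7305, 798 and 3037 in untreated folds and 25229.5, 20983 and 26811 in normal folds. The libraries are therefore treated as whole tissue.

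The lysosome is the acidic organelle in which cells break down proteins, glycans, lipids and nucleic acids taken in from outside or delivered by autophagy. A proton pump acidifies it, hydrolases such as the cathepsins do the cutting, membrane proteins shield its wall and export the products, and mannose 6-phosphate receptors with adaptor and clathrin coats carry new enzymes to it. Macrophages and neutrophils, which clear debris from wounds, are rich in lysosomal enzymes, and in healing tissue some cathepsins are also secreted and cut collagen and elastin.

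Levels are given as counts scaled to library size with TMM (CPM) for 1 gene across libraries, and as the authors' FPKM, which corrects for gene length, where genes are set against each other. Library totals lay between 44755718 and 50338111 counts. A gene is called where edgeR's quasi-likelihood test over all 9 libraries gave a Benjamini-Hochberg adjusted p under 0.05 over the 17344 genes tested, and fold changes are log2 of the first named group over the second. Of the 147 lysosome genes, 138 had enough counts to be tested. The other 9 were 3 of the 4 loci described as cathepsin L1 (LOC100344030, LOC100347623 and LOC100356256), LOC100357920, LOC103345049, SPATA25, PTCHD3, SFTPB and DNASE2B, and none of them had more than 21 counts in any library. By symbol, 104 of the 147 fell into 9 roles, and 43 were outside them. Locus numbers name 18 genes, of which 4 have a symbol in the RefSeq table (assembly mOryCun1.1): AP3S2 for LOC100341055, AP1M2 for LOC100349207, MAN2B1 for LOC103346838 and LITAFD for LOC103348547. On build OryCun2.0, 54 of the 147 genes lie on unplaced scaffolds. In that annotation 13 of the 147, among them CTSA, GLB1, NPC1 and PSAP, overlap another gene. Whether the authors' counting used strand is not given in the sources used here, so reads of such a pair may not be told apart.

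Much of the lysosome set was higher in untreated than in normal folds, and among the 9 roles the proteases had the highest median. Between untreated and normal folds, 71 of 138 lysosome genes rose and 8 fell, beside 17.7% and 15.1% of all genes tested. The median log2 fold change was 0.50 over the lysosome genes and -0.02 over all genes. All 3 untreated libraries lay above all 3 normal ones in 83 of the 138 and below them in 21, beside 28% and 27.1% of all genes tested. Summed over the 147 genes the level was 16364, 16567 and 14269 CPM in SOT folds, 19838, 21953 and 21212 in untreated folds and 10942, 11024 and 10632 in normal folds. The 3 groups did not overlap in this sum, with untreated folds highest and SOT folds between the other two. As a share of all summed FPKM the set held 1.59%, 1.84% and 1.54% in SOT folds, 1.9%, 2.1% and 2.04% in untreated folds and 0.943%, 1.02% and 1.02% in normal folds. In such bulk samples, more cells of a lysosome-rich type and more RNA per cell cannot be told apart. Of the 79 calls, 59 held when any 1 of the 9 libraries was left out, and the number of genes that fell then ranged from 4 to 9.

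**Figure D1:**
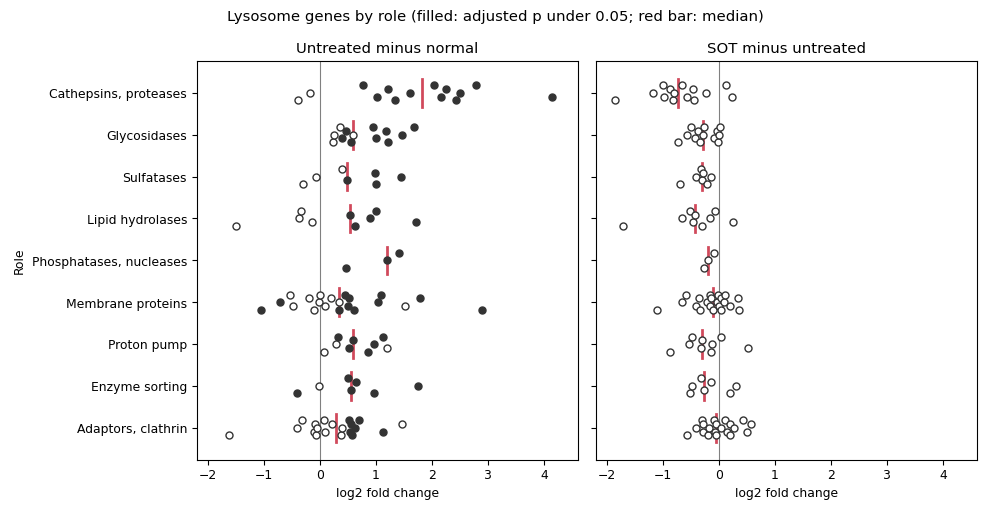
Log2 fold changes (horizontal axis) of the lysosome genes in the 9 roles (vertical axis), untreated minus normal on the left and SOT minus untreated on the right. Filled points passed an adjusted p under 0.05 and red bars are role medians; on the left the proteases have the highest median, 1.83, and on the right no point is filled.

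The proteases had the highest median of the 9 roles. Counts by role for untreated against normal folds stand beside 17.7% of all genes tested higher and 15.1% lower. Of 14 cathepsins and related proteases tested, 12 rose in untreated folds against normal folds and none fell, with a median log2 fold change of 1.83. CTSB, a cysteine cathepsin with broad substrate range, on chromosome 2 at 38137501 to 38154366, plus strand, had 1324, 1796 and 981 CPM in SOT folds, 1941, 2209.9 and 1962 in untreated folds and 439.8, 567 and 480.3 in normal folds. CTSB rose with a log2 fold change of 2.04 (SE 0.23, adjusted p = 0.000921). CTSK, the cathepsin that cuts triple-helical collagen and serves osteoclasts in bone resorption, on chromosome 13 at 41346272 to 41360274, plus strand, had 894, 891 and 498 CPM in SOT folds, 1287, 1413 and 1287 in untreated folds and 200.1, 277 and 223 in normal folds. CTSK rose with a log2 fold change of 2.51 (SE 0.25, adjusted p = 0.000608). In both genes the untreated libraries were the highest and the normal libraries the lowest in CPM, with no overlap between any of the groups. On the FPKM scale this did not hold for CTSB. There SOT replicate 2, at 848, lay above untreated replicates 1 and 3, at 817 and 836. CTSS, which trims the invariant chain for antigen presentation and stays active at neutral pH, on chromosome 13 at 41369856 to 41392871, plus strand, had 197, 199 and 278 CPM in SOT folds, 364, 443 and 429 in untreated folds and 65.6, 66.5 and 47.8 in normal folds. CTSS rose with a log2 fold change of 2.78 (SE 0.20, adjusted p = 0.000219). CTSH, an aminopeptidase among the cathepsins, had 195, 168 and 158 CPM in SOT folds, 285, 395 and 367 in untreated folds and 58.7, 74.2 and 62.2 in normal folds. CTSH rose with a log2 fold change of 2.42 (SE 0.17, adjusted p = 0.000211). In CTSS and CTSH, too, no libraries of different groups overlapped. CTSC, the dipeptidyl peptidase that activates the serine proteases of neutrophil granules, had 240.1, 251 and 219 CPM in SOT folds, 362, 567 and 476 in untreated folds and 84.8, 97.8 and 114 in normal folds. CTSC rose with a log2 fold change of 2.24 (SE 0.19, adjusted p = 0.000348). CTSC had the same order, with the untreated libraries on top and the SOT libraries between the others.

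CTSE, an aspartic protease of endosomes, showed the highest fold change of the role and a wide spread between SOT libraries. It had 134, 33.5 and 12.4 CPM in SOT folds, 186, 237 and 225 in untreated folds and 24, 7.12 and 5.33 in normal folds. CTSE rose with a log2 fold change of 4.15 (SE 0.93, adjusted p = 0.0115). SOT replicate 1 lay near the untreated libraries, whereas SOT replicates 2 and 3 lay far below them, and SOT replicate 3 lay within the normal range. The same library, SOT replicate 1, held the highest summed neutrophil markers of the SOT group: 5022, 1825 and 2047 CPM in SOT folds, 5130.3, 7311 and 6273 in untreated folds and 699, 611 and 2065 in normal folds. The part of these cells in the CTSE level was not tested. NAPSA, a related aspartic protease known from lung and kidney and picked here after its values were seen, had 7.22, 5.08 and 6.49 CPM in SOT folds, 10.8, 17.7 and 13.9 in untreated folds and 3.34, 3.69 and 2.45 in normal folds. NAPSA rose with a log2 fold change of 2.16 (SE 0.25, adjusted p = 0.00104).

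Other members of the role rose less. CTSA, the protective carboxypeptidase that holds beta-galactosidase and neuraminidase together, averaged 253 ± 20.3 CPM in SOT folds, 398 ± 18.8 in untreated folds and 129.8 ± 16.3 in normal folds (SD, n = 3 per group here and below; log2 fold change 1.62, SE 0.13, adjusted p = 0.000282). LGMN, the asparaginyl endopeptidase that matures several cathepsins, averaged 302 ± 71.7 CPM in SOT folds, 536 ± 24.6 in untreated folds and 211 ± 41.9 in normal folds. LGMN rose with a log2 fold change of 1.34 (SE 0.21, adjusted p = 0.00272). TPP1, a tripeptidyl peptidase, averaged 164 ± 19.4 CPM in SOT folds, 224 ± 18.1 in untreated folds and 96.6 ± 8.52 in normal folds. TPP1 rose with a log2 fold change of 1.21 (SE 0.13, adjusted p = 0.000702). CTSD, the main aspartic protease of lysosomes, averaged 364 ± 57.7 CPM in SOT folds, 500.5 ± 51.9 in untreated folds and 248 ± 15.2 in normal folds. CTSD rose with a log2 fold change of 1.01 (SE 0.15, adjusted p = 0.00225). CTSZ, a carboxypeptidase, averaged 192 ± 22.3 CPM in SOT folds, 226 ± 30.7 in untreated folds and 132 ± 4.83 in normal folds. CTSZ rose with a log2 fold change of 0.77 (SE 0.13, adjusted p = 0.00399). CTSF and CTSO, both cysteine cathepsins, were not called (log2 fold changes -0.17 and -0.39, adjusted p = 0.574 and 0.209). Among the loci described as cathepsin L1, only LOC100008830, on chromosome 1 at 75697171 to 75703253, minus strand, was tested, and it had 646, 687 and 475 CPM in SOT folds, 850.5, 858 and 834 in untreated folds and 183, 164 and 280.5 in normal folds. LOC100008830 rose with a log2 fold change of 2.02 (SE 0.23, adjusted p = 0.000931). The other cathepsin L1 loci held at most 0.055 FPKM each in any library, so few reads were assigned to them. How alike the loci are was not examined. Reads that match several loci may still affect this level, so it is uncertain.

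Per length, CTSB was the most abundant protease in all 3 groups, at 634 ± 194 FPKM in SOT folds, 858 ± 55.2 in untreated folds and 214 ± 29.3 in normal folds. CTSK had rank 2 of the 14 in SOT and in untreated folds and rank 3 in normal folds, at 373 ± 105 FPKM in SOT folds, 593 ± 27.1 in untreated folds and 107 ± 18.6 in normal folds. In normal folds CTSD stood above it, with overlapping libraries. CTSS had rank 4 in SOT folds, rank 3 in untreated folds and rank 8 in normal folds, at 155 ± 36.3 FPKM in SOT folds, 257 ± 26.1 in untreated folds and 38.3 ± 6.35 in normal folds. Its libraries overlapped those of its next neighbour in the order, LGMN in SOT folds, CTSD in untreated folds and CTSF in normal folds. The cathepsin L1 locus LOC100008830 is not among the 14 genes ranked. It had 399, 451 and 315 FPKM in SOT folds, 498, 497 and 495 in untreated folds and 108, 98.8 and 170 in normal folds. This locus lay above CTSS in every group without overlap, and its libraries overlapped those of CTSK in SOT and in normal folds. NAPSA, at 9.0 ± 1.36 FPKM in SOT folds, 18.5 ± 4.36 in untreated folds and 4.21 ± 0.841 in normal folds, and CTSO, at 12.3 ± 4.68 FPKM in SOT folds, 9.35 ± 0.20 in untreated folds and 12.6 ± 1.11 in normal folds, were among the lowest.

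**Figure D2:**
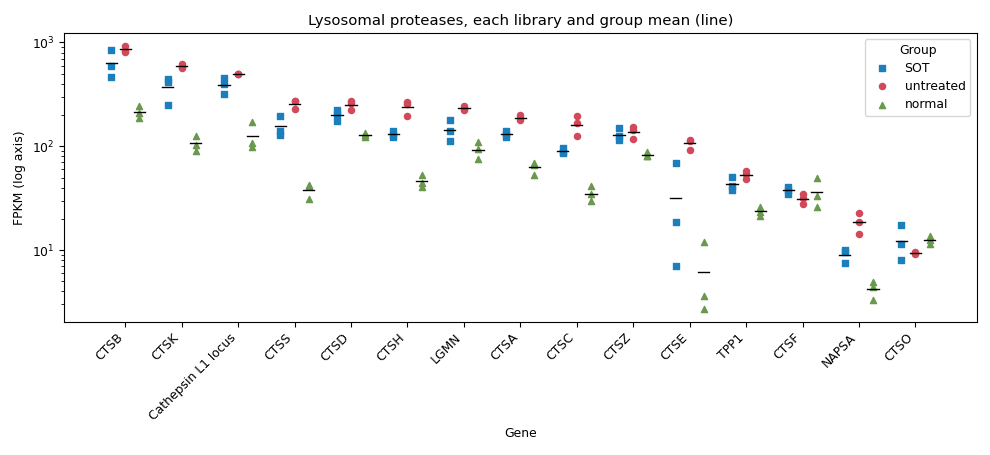
FPKM on a log axis (vertical) of each protease (horizontal), ordered by the untreated mean, with 1 point per library and a line at the group mean; squares are SOT, circles untreated and triangles normal folds. CTSB leads in every group, with a mean of 634 FPKM in SOT, 858 FPKM in untreated and 214 FPKM in normal folds, and CTSE has the widest spread among SOT libraries.

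Enzymes that strip sugars rose in 9 of 13 cases and none fell, with a median log2 fold change of 0.60. GUSB, beta-glucuronidase, which removes glucuronic acid from hyaluronan and chondroitin fragments, on an unplaced scaffold, had 44.1, 59.6 and 32.8 CPM in SOT folds, 61.9, 74.8 and 66.9 in untreated folds and 18.5, 24.6 and 20.5 in normal folds. GUSB rose with a log2 fold change of 1.68 (SE 0.22, adjusted p = 0.00146). GLB1, beta-galactosidase, on chromosome 14 at 19971116 to 20030366, minus strand, had 117, 165 and 135 CPM in SOT folds, 195, 188 and 205 in untreated folds and 74.1, 69.4 and 70.2 in normal folds. GLB1 rose with a log2 fold change of 1.46 (SE 0.13, adjusted p = 0.000435). Both were separated without overlap between untreated and normal folds, and in both every SOT library lay between those groups in CPM. On the FPKM scale GUSB in SOT replicate 2, at 26.2, lay above untreated replicate 1, at 24.3. GLA, alpha-galactosidase A, was called as well (log2 fold change 0.95, adjusted p = 0.00974).

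Calls of several other glycosidases did not hold in every fit with 1 library left out. MANBA, beta-mannosidase, had 14.8, 31.6 and 23.4 CPM in SOT folds, 29.7, 34.5 and 30.2 in untreated folds and 15.9, 16.3 and 8.58 in normal folds. MANBA rose with a log2 fold change of 1.21 (SE 0.32, adjusted p = 0.0205), but this call did not hold without untreated replicate 2 or 3 or normal replicate 3 (adjusted p = 0.0515 to 0.0654). HEXA, a subunit of beta-hexosaminidase, had rank 1 of the role by FPKM in untreated folds, with a small fold change. HEXA averaged 305 ± 30 CPM in SOT folds, 323 ± 50.1 in untreated folds and 219 ± 15.9 in normal folds. HEXA rose with a log2 fold change of 0.56 (SE 0.14, adjusted p = 0.0192), but the call was lost without untreated replicate 2 or 3 or normal replicate 1 or 2 (adjusted p = 0.0615 to 0.0726). NEU1, a sialidase, was called too (log2 fold change 0.40, adjusted p = 0.0228), but the call was lost without untreated replicate 2 or 3 or normal replicate 1 or 2 (adjusted p = 0.0582 to 0.0884). Without untreated replicate 2 or 3, 5 of the 13 were called instead of 9. GAA, which digests glycogen, was not called at 7.45 ± 1.3 CPM in SOT folds, 12.3 ± 0.986 in untreated folds and 8.15 ± 2.63 in normal folds (log2 fold change 0.59, adjusted p = 0.0902), and AGA, GALC and NAGLU had log2 fold changes between 0.24 and 0.36 without a call.

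Sulfatases, which take sulfate from glycosaminoglycans and sulfatides, rose in 4 of 7 cases, with a median log2 fold change of 0.49 and none lower. ARSB, the sulfatase of dermatan and chondroitin sulfate, had 15.5, 10.8 and 9.07 CPM in SOT folds, 17.4, 19.5 and 20 in untreated folds and 6.71, 7.43 and 6.68 in normal folds. ARSB rose with a log2 fold change of 1.45 (SE 0.20, adjusted p = 0.00185). GALNS, which acts on keratan and chondroitin sulfate, averaged 31.9 ± 5.22 CPM in SOT folds, 39.2 ± 5.11 in untreated folds and 19.6 ± 2.1 in normal folds. GALNS rose with a log2 fold change of 1.0 (SE 0.16, adjusted p = 0.00314), and ARSA, the sulfatide sulfatase, averaged 51.8 ± 7.53 CPM in SOT folds, 65.1 ± 3.01 in untreated folds and 32.7 ± 5.48 in normal folds. ARSA rose with a log2 fold change of 0.99 (SE 0.15, adjusted p = 0.00282). The untreated libraries lay above the normal ones in these 3 genes. SUMF1, which activates all sulfatases, and IDS and ARSG were not called, with log2 fold changes of 0.39, -0.08 and -0.29.

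Lipid hydrolases and their activators split, with 5 of 9 higher, none lower and a median log2 fold change of 0.54. LIPA, acid lipase, which frees cholesterol from its esters, on chromosome 18 at 37158041 to 37198356, minus strand, had 100.002, 108 and 64.6 CPM in SOT folds, 102, 177 and 149 in untreated folds and 44, 50.9 and 36.1 in normal folds. LIPA rose with a log2 fold change of 1.71 (SE 0.26, adjusted p = 0.00257). PSAP, the precursor of the saposins that present lipids to hydrolases, was the most abundant gene of the role and had 1269, 1262 and 1142 CPM in SOT folds, 1573, 1724 and 1779.5 in untreated folds and 856, 938 and 934 in normal folds. PSAP rose with a log2 fold change of 0.90 (SE 0.13, adjusted p = 0.00201). Untreated and normal libraries did not overlap in either gene, while SOT and untreated libraries of LIPA did. GM2A, the activator that lifts ganglioside GM2 out of membranes, averaged 235 ± 57 CPM in SOT folds, 315 ± 12 in untreated folds and 157 ± 22.8 in normal folds. GM2A rose with a log2 fold change of 1.01 (SE 0.19, adjusted p = 0.00553), and SMPD1, acid sphingomyelinase, averaged 51.4 ± 5.01 CPM in SOT folds, 74 ± 2.88 in untreated folds and 48.1 ± 2.47 in normal folds. SMPD1 rose with a log2 fold change of 0.62 (SE 0.10, adjusted p = 0.00299). ASAH1, acid ceramidase, averaged 136 ± 18.6 CPM in SOT folds, 168 ± 10.8 in untreated folds and 116 ± 13.9 in normal folds. ASAH1 rose with a log2 fold change of 0.54 (SE 0.14, adjusted p = 0.019), but the call was lost without untreated replicate 2 or 3 or normal replicate 3 (adjusted p = 0.0538 to 0.0709). PPT1, PPT2 and PLA2G15, which remove acyl chains from proteins or phospholipids, had log2 fold changes of -0.15, -0.38 and -0.33 and were not called. PSAPL1, of low counts, had the largest decline of the role (log2 fold change -1.5) and was not called either (adjusted p = 0.0701). DESeq2 did call PSAPL1 lower (adjusted p = 0.0259).

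All 3 phosphatases and nucleases tested rose. ACP5, the tartrate-resistant acid phosphatase used as an osteoclast and macrophage marker, had 15.8, 21.9 and 18.7 CPM in SOT folds, 17.9, 21.1 and 20.8 in untreated folds and 6.73, 6.6 and 9.26 in normal folds. ACP5 rose with a log2 fold change of 1.4 (SE 0.19, adjusted p = 0.00164). DNASE2, which degrades DNA of engulfed cells, had 28.7, 36.4 and 34.4 CPM in SOT folds, 38.4, 41.6 and 40 in untreated folds and 18.7, 17.6 and 16.2 in normal folds. DNASE2 rose with a log2 fold change of 1.19 (SE 0.12, adjusted p = 0.000643). In ACP5 the SOT and untreated libraries overlapped and both lay above the normal ones. ACP2, another acid phosphatase, changed least (log2 fold change 0.47, adjusted p = 0.0201), but the call was lost without untreated replicate 2 or 3 or normal replicate 1 or 3 (adjusted p = 0.0641 to 0.0862). Taken over the 5 enzyme roles, 33 of 46 genes tested rose, none fell, and the median log2 fold change was 0.97.

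Of 21 membrane proteins and transporters, 9 rose and 2 fell, beside 17.7% and 15.1% of all genes tested. The falls were thus not above the share of all genes, and the median log2 fold change was 0.34. LAPTM5, a membrane protein of blood cells that sorts receptors to lysosomes, on chromosome 13 at 135408011 to 135431080, plus strand, had 428, 319 and 283 CPM in SOT folds, 560.5, 859 and 801 in untreated folds and 89, 110.4 and 101 in normal folds. LAPTM5 rose with a log2 fold change of 2.89 (SE 0.22, adjusted p = 0.000282). LITAF, a late endosomal protein, had 204, 152 and 93.6 CPM in SOT folds, 209.7, 239 and 223 in untreated folds and 59.2, 84.4 and 52 in normal folds. LITAF rose with a log2 fold change of 1.78 (SE 0.29, adjusted p = 0.00317). MCOLN1, the calcium channel of lysosomes, had 61, 46 and 49.7 CPM in SOT folds, 71.9, 88.7 and 86.5 in untreated folds and 34.3, 42.4 and 38.7 in normal folds. MCOLN1 rose with a log2 fold change of 1.1 (SE 0.14, adjusted p = 0.00155). In CPM, every untreated library lay above every SOT and every normal library in these 3 genes. On the FPKM scale LITAF overlapped, with 70.1 in SOT replicate 1 and 68.3 in untreated replicate 1. HGSNAT, the acetyltransferase of heparan sulfate breakdown, went the other way with 90.5, 94.2 and 75.6 CPM in SOT folds, 73.7, 76.7 and 77.3 in untreated folds and 149, 119 and 104 in normal folds. HGSNAT fell with a log2 fold change of -0.71 (SE 0.14, adjusted p = 0.00789). ABCB9, a peptide transporter, also fell, with 3.74, 6.19 and 4.87 CPM in SOT folds, 5.08, 3.82 and 5.95 in untreated folds and 8.18, 13.7 and 8.8 in normal folds. ABCB9 fell with a log2 fold change of -1.05 (SE 0.29, adjusted p = 0.0248), but this call did not hold without untreated replicate 1 or 2 or normal replicate 2 (adjusted p = 0.0568 to 0.0884).

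The structural proteins of the lysosomal wall moved little. LAMP1, which lines the inner face of the membrane, averaged 317 ± 14.3 CPM in SOT folds, 369.7 ± 2.46 in untreated folds and 259.8 ± 9.4 in normal folds. LAMP1 rose with a log2 fold change of 0.51 (SE 0.09, adjusted p = 0.00534). LAMP2 averaged 232 ± 31.7 CPM in SOT folds, 297 ± 25.3 in untreated folds and 218 ± 21.3 in normal folds. LAMP2 rose with a log2 fold change of 0.45 (SE 0.14, adjusted p = 0.0361), but the call was lost without SOT replicate 2 or untreated replicate 2 or 3 or normal replicate 1, 2 or 3 (adjusted p = 0.0518 to 0.121). CD63, a tetraspanin of late endosomes and by FPKM the most abundant gene of the role in every group, averaged 434 ± 103 CPM in SOT folds, 477 ± 23.6 in untreated folds and 331 ± 19.1 in normal folds. CD63 rose with a log2 fold change of 0.53 (SE 0.17, adjusted p = 0.0479), but the call was lost without SOT replicate 2 or untreated replicate 1, 2 or 3 or normal replicate 1, 2 or 3 (adjusted p = 0.0677 to 0.136). SCARB2, a membrane protein of lysosomes, was not called at 396 ± 70.1 CPM in SOT folds, 398 ± 3.47 in untreated folds and 315 ± 21.5 in normal folds (log2 fold change 0.34, adjusted p = 0.0951). LAMP3, a member induced in dendritic cells, was low and was not called (log2 fold change 1.51, adjusted p = 0.0531).

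Transporters of cholesterol and cystine gave few calls. NPC1, which exports cholesterol through the membrane, had 66, 39.5 and 43.5 CPM in SOT folds, 56.8, 54 and 55 in untreated folds and 44.4, 67.3 and 54.9 in normal folds, and its libraries overlapped between all groups (log2 fold change -0.01, adjusted p = 0.985). NPC2, its soluble partner, averaged 222 ± 60.9 CPM in SOT folds, 206 ± 16.4 in untreated folds and 135 ± 13.3 in normal folds. NPC2 rose with a log2 fold change of 0.62 (SE 0.19, adjusted p = 0.039), but the call was lost without untreated replicate 1, 2 or 3 or normal replicate 1, 2 or 3 (adjusted p = 0.0533 to 0.116). CTNS, the cystine exporter, was not called (log2 fold change 0.19, adjusted p = 0.489). ENTPD4, a nucleotide hydrolase, was called with a log2 fold change of 0.34 (adjusted p = 0.0275) and lost its call without untreated replicate 2 or 3 or normal replicate 1, 2 or 3 (adjusted p = 0.0522 to 0.109). For the whole role, 5 genes rose instead of 9 without normal replicate 1 or 2 or untreated replicate 2 or 3. The number that fell was 1 without normal replicate 2 or untreated replicate 1 or 2, and 4 without normal replicate 3.

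Of the 9 proton pump genes, 6 rose, none fell, and the median log2 fold change was 0.60. ATP6V0A1, an a subunit of the membrane sector, on chromosome 19 at 43229968 to 43283717, plus strand, had 119.9, 73.5 and 93.9 CPM in SOT folds, 179, 168 and 179.9 in untreated folds and 73.9, 82.8 and 85 in normal folds. ATP6V0A1 rose with a log2 fold change of 1.13 (SE 0.17, adjusted p = 0.00237). ATP6AP1, an accessory subunit, had 169, 149 and 148 CPM in SOT folds, 199, 236 and 237 in untreated folds and 116, 115 and 113 in normal folds. ATP6AP1 rose with a log2 fold change of 0.96 (SE 0.11, adjusted p = 0.000857). ATP6V0C, the subunit of the proton-carrying ring, had 178, 157 and 151 CPM in SOT folds, 191, 213 and 207 in untreated folds and 99.7, 118 and 119.7 in normal folds. ATP6V0C rose with a log2 fold change of 0.86 (SE 0.11, adjusted p = 0.00165). In ATP6V0A1 the SOT libraries overlapped the normal ones, whereas in the other two the 3 groups were separate. ATP6V0B (log2 fold change 0.60, adjusted p = 0.00809) and ATP6V0D1 (0.52, adjusted p = 0.0066) rose less, as did ATP6V1H (0.32, adjusted p = 0.0354), whose call was lost without untreated replicate 1, 2 or 3 or normal replicate 1 or 2 (adjusted p = 0.082 to 0.117). The tissue-restricted subunits ATP6V0D2, known from osteoclasts and macrophages, and ATP6V0A4, known from kidney and epithelium, were low and not called: ATP6V0D2 averaged 7.35 ± 3.55 CPM in SOT folds, 10.2 ± 2.45 in untreated folds and 4.47 ± 3.5 in normal folds (log2 fold change 1.2, adjusted p = 0.185) and ATP6V0A4 7.55 ± 2.21 CPM in SOT folds, 5.29 ± 1.08 in untreated folds and 4.32 ± 1.1 in normal folds (log2 fold change 0.29, adjusted p = 0.474). TCIRG1, another a subunit, was not matched by symbol and was not analysed here.

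Enzyme sorting genes rose in 5 of 7 cases and fell in 1, the fall being near the share of all genes, with a median log2 fold change of 0.55. IGF2R, the large mannose 6-phosphate receptor, on chromosome 12 at 149773362 to 149862350, plus strand, had 187, 193 and 177 CPM in SOT folds, 242, 270.2 and 266 in untreated folds and 76, 70.4 and 85 in normal folds. IGF2R rose with a log2 fold change of 1.75 (SE 0.11, adjusted p = 0.000197). M6PR, the small receptor, had 113, 128 and 134 CPM in SOT folds, 130.003, 142 and 141 in untreated folds and 102, 87.6 and 93.1 in normal folds. M6PR rose with a log2 fold change of 0.55 (SE 0.10, adjusted p = 0.00578). Both rose, and the IGF2R libraries did not overlap between any of the 3 groups. NAGPA, which uncovers the mannose 6-phosphate tag, averaged 38.7 ± 5.52 CPM in SOT folds, 48.4 ± 3.24 in untreated folds and 24.6 ± 2.93 in normal folds. NAGPA rose with a log2 fold change of 0.97 (SE 0.14, adjusted p = 0.00213), and GGA2, an adaptor that loads the receptors at the Golgi, averaged 102 ± 6.06 CPM in SOT folds, 146 ± 11.7 in untreated folds and 93.1 ± 15.3 in normal folds. GGA2 rose with a log2 fold change of 0.65 (SE 0.13, adjusted p = 0.00822). GGA3, its relative, rose with a log2 fold change of 0.51 (adjusted p = 0.0338), but this call did not hold without untreated replicate 2 or 3 or normal replicate 1, 2 or 3 (adjusted p = 0.0698 to 0.123). SORT1, sortilin, a receptor that works without the tag, averaged 190.2 ± 20.8 CPM in SOT folds, 153 ± 7.59 in untreated folds and 204 ± 26.5 in normal folds. SORT1 fell with a log2 fold change of -0.41 (SE 0.13, adjusted p = 0.0412), but the call was lost without untreated replicate 1, 2 or 3 or normal replicate 1 or 2 (adjusted p = 0.0548 to 0.132). GNPTAB, which makes the tag, had a log2 fold change of -0.01 and was not called.

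Adaptor and clathrin subunits had the lowest median of the 9 roles, with 7 of 20 higher, none lower and a median log2 fold change of 0.30. Matching by symbol leaves LOC100341055 and LOC100349207, which RefSeq names AP3S2 and AP1M2, outside this role. LOC100341055 fell (adjusted p = 0.0396), a call that did not hold in every left-out fit, and LOC100349207 was not called. AP1S2, a small subunit of adaptor complex AP-1, had 119, 78 and 81.2 CPM in SOT folds, 99.1, 123 and 118 in untreated folds and 44.8, 51.4 and 58.8 in normal folds. AP1S2 rose with a log2 fold change of 1.13 (SE 0.19, adjusted p = 0.00347). CLTC, the clathrin heavy chain, had 582, 625 and 516 CPM in SOT folds, 649, 757 and 709.5 in untreated folds and 454, 407 and 437 in normal folds. CLTC rose with a log2 fold change of 0.70 (SE 0.13, adjusted p = 0.00464). AP1B1, the large beta subunit of AP-1, had 113, 103 and 92 CPM in SOT folds, 131, 140.3 and 139.6 in untreated folds and 99.6, 89.4 and 89.7 in normal folds. AP1B1 rose with a log2 fold change of 0.56 (SE 0.10, adjusted p = 0.00537). Untreated libraries were above normal ones in all 3, and SOT libraries of AP1B1 overlapped the normal ones. AP3B1, of the AP-3 complex, was called (log2 fold change 0.54, adjusted p = 0.0125). AP1M1 (0.62, adjusted p = 0.0204) lost its call without untreated replicate 2 or 3 or normal replicate 1 or 2 (adjusted p = 0.0584 to 0.0696), AP1S1 (0.57, adjusted p = 0.0198) without untreated replicate 1 or 3 or normal replicate 1 or 2 (adjusted p = 0.0511 to 0.0641), and AP4M1 (0.51, adjusted p = 0.0201) without untreated replicate 2 or 3 or normal replicate 1 (adjusted p = 0.0675 to 0.0812). Without normal replicate 1 or untreated replicate 3, 4 of the 20 were called instead of 7. AP3B2, the subunit known from neurons, was not called at 1.32 ± 0.344 CPM in SOT folds, 1.96 ± 0.194 in untreated folds and 0.711 ± 0.408 in normal folds (log2 fold change 1.46, adjusted p = 0.0559).

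**Figure D3:**
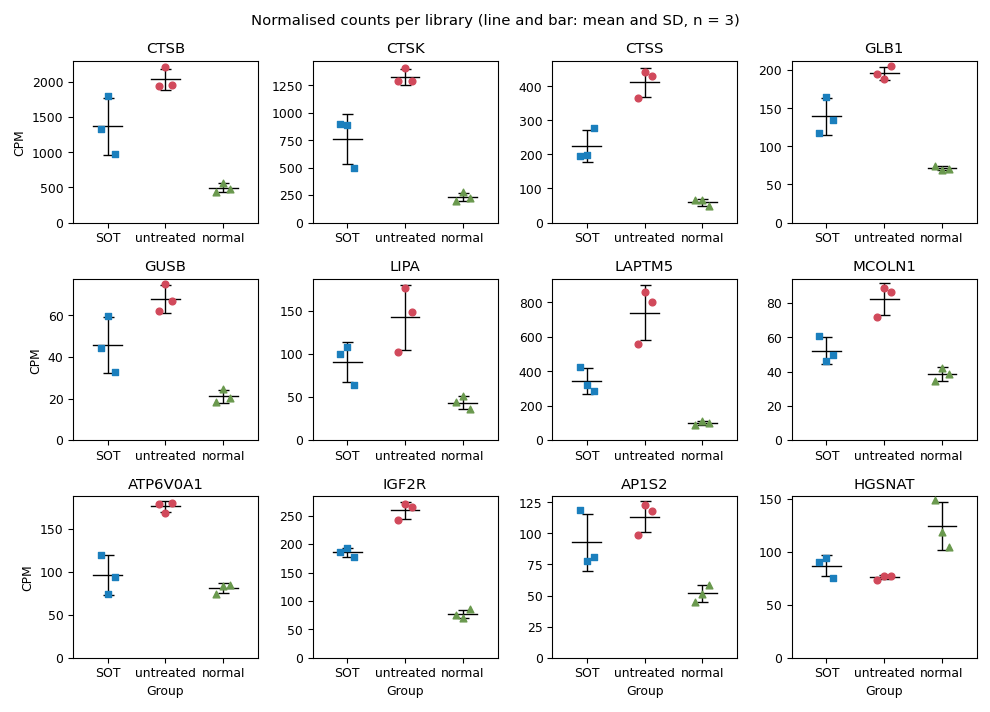
Normalised counts (CPM, vertical axis from 0) of single lysosome genes in the SOT, untreated and normal groups, with 1 point per library and a line and bar for mean and SD (n = 3). Untreated libraries are above normal ones in every panel but HGSNAT, where untreated folds averaged 75.9 CPM and normal folds 124 CPM.

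Among the 43 genes outside the roles, 35 were tested, 11 rose and 5 fell, beside 17.7% and 15.1% of all genes tested. The number that fell was thus near the share of all genes. All 5 loci described as lysosomal alpha-mannosidase, the enzyme that trims mannose from glycoproteins, rose, with log2 fold changes between 2.06 and 2.5. LOC103346838, which RefSeq names MAN2B1, had 99.6, 88.7 and 85.1 CPM in SOT folds, 158, 199 and 188 in untreated folds and 40.5, 39.4 and 36.8 in normal folds. LOC103346838 rose with a log2 fold change of 2.22 (SE 0.12, adjusted p = 0.000182). LOC100350701 had 44.8, 39 and 38.4 CPM in SOT folds, 62, 80.5 and 78.6 in untreated folds and 17.4, 17.3 and 18.1 in normal folds. LOC100350701 rose with a log2 fold change of 2.07 (SE 0.13, adjusted p = 0.000197). The 3 groups did not overlap in either. The 5 loci lie on unplaced scaffolds and may be pieces or copies of 1 gene that share reads, so they are not independent. SORL1, a sorting receptor related to sortilin and picked after its values were seen, had 178, 126 and 117 CPM in SOT folds, 242, 268 and 262 in untreated folds and 108, 65.1 and 59.4 in normal folds. SORL1 rose with a log2 fold change of 1.73 (SE 0.25, adjusted p = 0.00223). The locus LOC103346606 carries the KEGG ortholog code of ARSB and rose alongside (log2 fold change 1.41, adjusted p = 0.00197), as did ATP6AP1L (1.2, adjusted p = 0.0045), which carries that of ATP6AP1.

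Of the 5 genes outside the roles that fell, 3 have names that are not those of lysosomal proteins. In the deposited table, 13 genes, such as FAM189A2, ZNF358 and WDR11, carry a Lysosome entry although they are named otherwise. FAM189A2 shares its ortholog code with another gene of the set and had 15, 5.18 and 11.1 CPM in SOT folds, 12.9, 5.92 and 7.6 in untreated folds and 48, 33.3 and 38.3 in normal folds. FAM189A2 fell with a log2 fold change of -2.18 (SE 0.42, adjusted p = 0.0064). ZNF358 shares that of MCOLN1 and had 53.8, 47.1 and 47.9 CPM in SOT folds, 51.4, 43.8 and 51 in untreated folds and 75.3, 75.7 and 81.2 in normal folds. ZNF358 fell with a log2 fold change of -0.67 (SE 0.10, adjusted p = 0.00253). PTCHD1, a patched-domain relative that carries the code of NPC1, had 3.37, 2.62 and 4.11 CPM in SOT folds, 4.5, 2.25 and 2.68 in untreated folds and 14.6, 11.2 and 7.88 in normal folds. PTCHD1 fell with a log2 fold change of -1.84 (SE 0.34, adjusted p = 0.00551). In these 3 genes all SOT and all untreated libraries lay below all normal ones. Of the 13, 12 were tested, 2 rose and 3 fell, beside 17.7% and 15.1% of all genes tested, with a median log2 fold change of -0.34. TOM1L2 (log2 fold change -0.44) lost its call without untreated replicate 1, 2 or 3 or normal replicate 1, 2 or 3 (adjusted p = 0.0579 to 0.124), FAM189B (0.47) without untreated replicate 1, 2 or 3 or normal replicate 1 or 3 (adjusted p = 0.0579 to 0.0919), and LOC100341055 (-0.51), outside the 13, without SOT replicate 1 or 2 or untreated replicate 1, 2 or 3 or normal replicate 2 or 3 (adjusted p = 0.0514 to 0.127). Leaving the 13 out gave 69 higher and 5 lower of 126, with a median log2 fold change of 0.53.

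Between SOT and untreated folds no lysosome gene was called: 0 of 138 were higher and 0 lower by edgeR, beside 0% and 0.0115% of all genes tested, which is 2 genes in all. At an unadjusted p under 0.05, 44 lysosome genes were lower in SOT folds and 4 higher, beside 7.59% and 5.06% of all genes. DESeq2 called 23 lower, beside 2.62% of all genes, and 1 higher, beside 1.32%. The log2 fold change was below 0 in 98 of the 138, beside 48.4% of all genes, and its median was -0.20, against 0.01 over all genes. In 54 of the 138 all 3 SOT libraries lay below all 3 untreated ones, beside 12.4% of all genes. On the authors' FPKM scale the median of all genes shifted to 0.13 and that of the lysosome genes to -0.07, so that 79 of the 138 were below 0, beside 33.4% of all genes. Without SOT replicate 1, 8 of 140 lysosome genes were called lower, beside 1.81% of all genes tested in that fit, and without untreated replicate 1 there was 1, beside 0.0226%. This comparison and that of untreated with normal folds share the untreated libraries.

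By role the median log2 fold change of SOT against untreated folds was -0.73 for proteases, -0.42 for lipid hydrolases, -0.30 for sulfatases and for the proton pump, -0.28 for glycosidases, -0.27 for enzyme sorting, -0.19 for phosphatases and nucleases, -0.11 for membrane proteins and -0.06 for adaptors. These medians rest on TMM scaling. Among the 14 proteases, 12 were below 0, beside 48.4% of all genes. In 11 all SOT libraries lay below all untreated ones in CPM, beside 12.4% of all genes. On the authors' FPKM scale, SOT and untreated libraries overlapped in CTSB, CTSD and TPP1, among others. The genes with the smallest p were 2 alpha-mannosidase loci, CTSH, CTSC, SMPD1 and ATP6V0A1, and none of them passed. LOC103346838 gave a log2 fold change of -1.0 (95% interval -1.26 to -0.73, adjusted p = 0.0749) and LOC100350701 one of -0.86 (-1.14 to -0.57, adjusted p = 0.0749). CTSH gave -1.01 (-1.37 to -0.64, adjusted p = 0.0829) and CTSC -0.99 (-1.4 to -0.57, adjusted p = 0.126). SMPD1 gave -0.53 (-0.75 to -0.30, adjusted p = 0.129), with 57.2, 48.3 and 48.6 CPM in SOT folds, against 75.6, 70.6 and 75.7 in untreated folds. ATP6V0A1 gave -0.88 (-1.26 to -0.50, adjusted p = 0.136). In all 6 genes the SOT libraries lay below the untreated ones without overlap.

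For several genes the interval of the SOT difference was wide or spanned 0. CTSB had a log2 fold change of -0.58 (95% interval -1.09 to -0.06, adjusted p = 0.34), CTSK -0.80 (-1.34 to -0.26, adjusted p = 0.246) and LAPTM5 -1.11 (-1.59 to -0.62, adjusted p = 0.136). HEXA had -0.08 (-0.41 to 0.24), M6PR -0.14 (-0.37 to 0.10), NPC2 0.10 (-0.33 to 0.54) and ATP6V0D2 -0.48 (-1.93 to 0.97). These last 4 intervals span 0, and that of ATP6V0D2 is the widest of them. ACP5 had a log2 fold change of -0.09 (-0.50 to 0.33) between overlapping libraries.

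**Figure D4:**
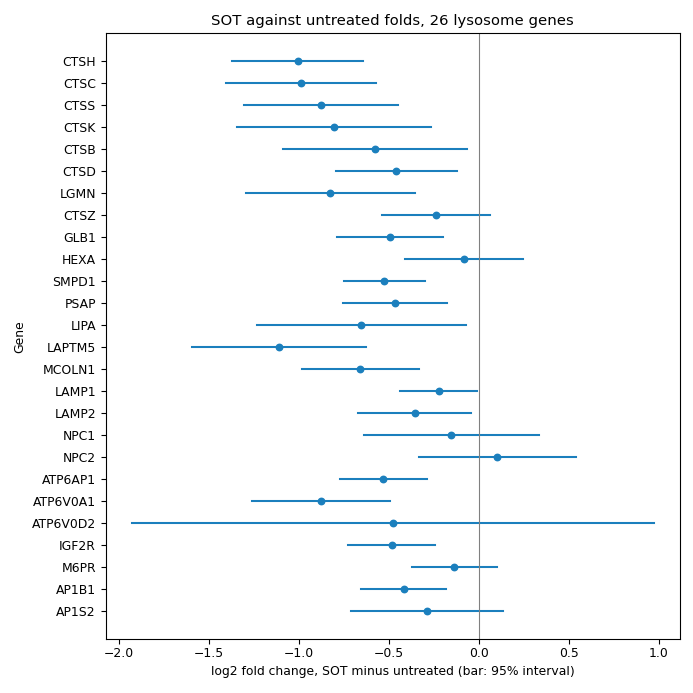
Log2 fold change of SOT against untreated folds (horizontal axis) with its 95% interval, not adjusted for the number of genes, for lysosome genes ordered by role (vertical axis). Most points lie below 0, CTSH at -1.01 and LAPTM5 at -1.11 among the lowest, and no gene passed an adjusted p under 0.05.

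Between SOT and normal folds, 41 of 138 lysosome genes were higher and 7 lower, beside 9.01% and 7.67% of all genes tested, with a median log2 fold change of 0.33, against 0.02 over all genes. Both this comparison and that of untreated folds use the same normal libraries. Of the 48 calls, 21 held when any 1 library was left out, and the number of higher genes ranged from 20 without normal replicate 1 to 48 without SOT replicate 3. Proteases again gave the most, with 10 of 14 higher and a median of 0.98. CTSS (log2 fold change 1.91, adjusted p = 0.00265), CTSK (1.7, adjusted p = 0.00617), CTSB (1.46, adjusted p = 0.00758), CTSH (1.42, adjusted p = 0.00321), CTSC (1.26, adjusted p = 0.00648), CTSA (0.96, adjusted p = 0.00489) and TPP1 (0.76, adjusted p = 0.00881) held in every such fit. LGMN, which rose in untreated folds, was not called in SOT folds (0.52, adjusted p = 0.115), and neither was CTSE (2.3, adjusted p = 0.102). Whether these genes differ between the injured groups is the comparison of SOT with untreated folds above, where neither passed.

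Outside the proteases, the calls that held in every fit included LAPTM5 (log2 fold change 1.78, SE 0.22, adjusted p = 0.00403), IGF2R (log2 fold change 1.27, SE 0.11, adjusted p = 0.00249), ACP5 (log2 fold change 1.32, SE 0.19, adjusted p = 0.00612), DNASE2 (log2 fold change 0.92, SE 0.12, adjusted p = 0.00483), and GLB1 (log2 fold change 0.97, SE 0.13, adjusted p = 0.00525). The next counts by role stand beside 9.01% of all genes tested higher in the fit of all libraries. Glycosidases were higher in 5 of 13 cases, or 3 without normal replicate 1. Sulfatases were higher in 3 of 7, but in 0 without SOT replicate 2 or normal replicate 1. The proton pump was higher in 3 of 9, but in 0 without normal replicate 1. The share of all genes called in those left-out fits is not given here, so the drops are not set against it. Of the genes that were lower in SOT folds, PSAPL1, a saposin-like gene of low counts, had 0.634, 0.374 and 0.446 CPM in SOT folds, 2.09, 1.17 and 1.51 in untreated folds and 3.09, 1.85 and 8.54 in normal folds (log2 fold change -3.21, SE 0.60, adjusted p = 0.0123), and ZNF358 had the other call that held (log2 fold change -0.64, SE 0.10, adjusted p = 0.00787). PSAPL1 libraries of SOT folds lay below all untreated and normal ones. HGSNAT was lower in SOT folds (log2 fold change -0.51, adjusted p = 0.0435), but the call was lost without SOT replicate 1, 2 or 3 or untreated replicate 1, 2 or 3 or normal replicate 1 or 2 (adjusted p = 0.0656 to 0.122).

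The spread between replicates was smallest in untreated folds. The median coefficient of variation over the 138 genes was 15.5% in SOT folds, 8.01% in untreated folds and 12.5% in normal folds, against 21.4%, 12.2% and 16.9% over all genes tested, without a correction for their different count levels. Untreated replicate 1 was the lowest of the untreated libraries in 78 of the 138 genes, and SOT replicate 3 the lowest of the SOT libraries in 67.

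Summed markers of phagocytes, of fibroblasts and of the osteoclast list were, like the summed lysosome genes, highest in untreated folds. The counts of markers called stand beside 17.7% of all genes tested higher and 15.1% lower in untreated against normal folds. Of 18 macrophage markers listed, 14 were in the table by symbol, and 12 of these rose in untreated against normal folds while C1QC and MARCO were not called. Their summed level was 1413, 909.96 and 843 CPM in SOT folds, 1945, 2274 and 2184 in untreated folds and 401, 562 and 420.1 in normal folds. Of the 9 neutrophil markers in the table, 8 rose, and S100A12 was not called. As with the summed lysosome genes, the summed macrophage markers were highest in untreated and lowest in normal folds without overlap. The fibroblast sum, given below, had the same order without overlap in CPM, while the neutrophil sum overlapped between SOT and normal folds. In FPKM the fibroblast sum of SOT replicate 2, at 9054, lay above those of the untreated libraries, at 8216, 8882 and 8854. Of 8 osteoclast and giant cell markers, 7 were tested: MMP9 and ITGB3, which other cells also make, rose, NFATC1 fell, and CALCR, OCSTAMP, DCSTAMP and TNFRSF11A were not called. Their sum was 196, 185 and 101 CPM in SOT folds, 393, 282 and 344 in untreated folds and 106, 107 and 101 in normal folds, while CALCR, OCSTAMP and DCSTAMP stayed under 1 CPM on average in all groups. Of 10 fibroblast markers, 5 rose, among them COL1A1 and COL3A1, and DCN and THY1 fell, the falls being near the share of all genes. The call of DCN was lost without any 1 of the untreated libraries or normal replicate 1 or 2. The fibroblast sum was 20210.5, 40966 and 22203 CPM in SOT folds, 43685, 47646 and 46442 in untreated folds and 11772, 14588 and 14476 in normal folds. Of the 8 stratified epithelium markers in the table, KRT5 rose and KRT15 fell, both counts near the shares of all genes. The KRT15 call was lost without untreated replicate 2 or 3. The epithelium sum was 9147, 7887 and 9672 CPM in SOT folds, 9354, 10464 and 10006 in untreated folds and 9503, 7482 and 17491 in normal folds, with overlap between untreated and normal folds. Of the muscle and cartilage markers in the table, 9 of 13 for skeletal muscle, whose sums are given above, and 10 of 11 for cartilage fell in untreated against normal folds. The muscle count was 2 without any 1 of the normal libraries or untreated replicate 2, and 1 without untreated replicate 3. The cartilage sum was 199.7, 143 and 649 CPM in SOT folds, 164, 129 and 90.1 in untreated folds and 3253, 5277 and 2570.3 in normal folds. The part of any of these cells in the lysosome changes was not tested.

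**Figure D5:**
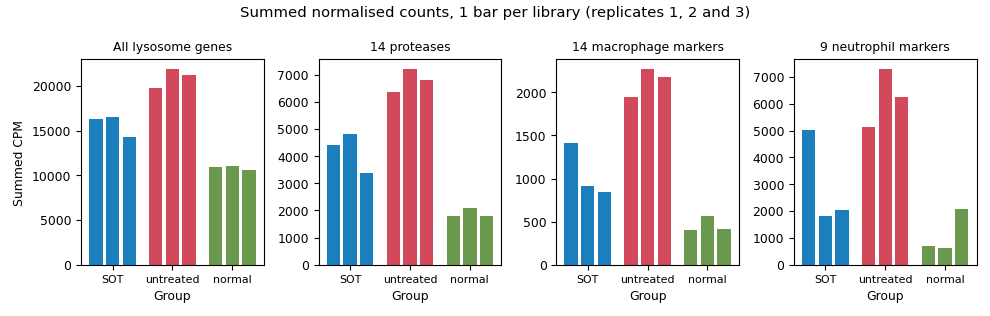
Summed CPM (vertical axes from 0, each with its own scale) of the lysosome genes, of the proteases among them, and of macrophage and neutrophil markers, with 1 bar per library in the SOT, untreated and normal groups. The sum of the lysosome genes and that of the macrophage markers are highest in the 3 untreated libraries, and SOT replicate 1 has 5022 CPM of neutrophil markers, close to the 5130 CPM of untreated replicate 1.

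Genes that act with the lysosome but carry no Lysosome entry were counted in 5 lists, whose counts stand beside 17.7% of all genes higher and 15.1% lower in untreated against normal folds. Further proton pump genes, which are the soluble V1 sector that splits ATP together with ATP6AP2, ATP6V0E1 and ATP6V0E2 of the membrane part, had 4 of 13 higher and 2 lower, with a median log2 fold change of -0.06. The number lower was 1 without normal replicate 1 or 3 or untreated replicate 2 or 3. ATP6V1B2, a catalytic-core subunit, rose (log2 fold change 0.95, adjusted p = 0.00161), as did the accessory subunit ATP6AP2 (log2 fold change 0.88, adjusted p = 0.00233), and ATP6V0E2, a small membrane subunit, fell (log2 fold change -1.4, adjusted p = 0.00555). The transcription factors of the MiT/TFE family, which switch on lysosomal genes, with the nutrient sensors on the lysosomal surface, had 6 of 19 higher and 2 lower, with a median of 0.18. TFEC, a family member of macrophages, averaged 20.4 ± 1.88 CPM in SOT folds, 52.6 ± 10.6 in untreated folds and 5.34 ± 0.744 in normal folds (log2 fold change 3.3, adjusted p = 0.000197), and TFE3 averaged 75.9 ± 14.5 CPM in SOT folds, 119.6 ± 12.5 in untreated folds and 58.5 ± 3.3 in normal folds (log2 fold change 1.03, adjusted p = 0.00219). RRAGB, a Rag GTPase of nutrient sensing, fell (log2 fold change -1.96, adjusted p = 0.00385). The count of 6 was 3 without normal replicate 1 or untreated replicate 2 or 3.

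Inhibitors of cathepsins moved in both directions, with 2 of 7 higher and 1 lower and a median log2 fold change of 0.48. CST3, cystatin C, the main secreted inhibitor of cysteine cathepsins, averaged 458 ± 212 CPM in SOT folds, 225 ± 46.6 in untreated folds and 1035 ± 484 in normal folds and fell in untreated folds (log2 fold change -2.2, adjusted p = 0.00656). CST7, an inhibitor of CTSC in immune cells, averaged 11.3 ± 5.37 CPM in SOT folds, 13.8 ± 6.94 in untreated folds and 2.8 ± 0.163 in normal folds (log2 fold change 2.3, adjusted p = 0.00742), and SERPINB1, an inhibitor of neutrophil proteases, averaged 52.7 ± 8.53 CPM in SOT folds, 62.5 ± 3.34 in untreated folds and 30.8 ± 4.67 in normal folds (log2 fold change 1.02, adjusted p = 0.0023). Fusion and late endosome genes had 3 of 17 higher, a share near that of all genes, and 1 lower, with a median of 0.15, and without untreated replicate 2 or 3 only 1 was higher. PLEKHM1, an adaptor for lysosome fusion, rose (log2 fold change 0.76, adjusted p = 0.00534), and RILP, which links lysosomes to the dynein motor, fell (log2 fold change -1.22, adjusted p = 0.0109). Autophagy genes had 4 of 16 higher and 2 lower, with a median of 0.09; 2 were higher without untreated replicate 2 and 1 without untreated replicate 3. GABARAPL1, an autophagosome protein, fell (log2 fold change -1.16, adjusted p = 0.00481), and WIPI1, which binds the forming membrane, rose (log2 fold change 0.96, adjusted p = 0.0281), but the call was lost without untreated replicate 1, 2 or 3 or normal replicate 1, 2 or 3 (adjusted p = 0.0549 to 0.0844). Between SOT and untreated folds no gene of these 5 lists was called, and without SOT replicate 1 there were 3 lower calls among the MiT/TFE and nutrient sensing genes, beside 1.81% of all genes.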

How the data were processed

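Polyadenylated RNA of 9 libraries was measured, 3 from SOT, 3 from untreated and 3 from normal folds. The raw counts and the FPKM values, which are scaled to gene length and library size, are those the authors deposited. The submitters' processing notes name cutadapt 1.9, HISAT2 2.0.4, StringTie 1.3.4d, edgeR and build OryCun2.0, with no role or order. Annotation and filters were not given in the sources used here. Library totals of 44755718 to 50338111 counts limit the precision only for low genes, and a count of 0 allows up to 3 counts. That floor and all intervals cover counting error and the spread between libraries only.

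The counts were filtered with filterByExpr, scaled with TMM and fitted in R 4.3.3 with edgeR 4.0.16 (quasi-likelihood test, 1 mean per group, all 9 libraries). P-values were adjusted by Benjamini-Hochberg over all 17344 genes tested, and the code was checked on simulated counts. SE is the log2 fold change divided by the root of the F statistic. Alternatives were RLE size factors, DESeq2 1.42.0, no filter, limma 3.58.1 on log2(FPKM + 0.1) and log2(FPKM + 1), a fit of only the 2 groups compared, a replicate block, and leaving out each library.

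Named with values were, in each role, up to 5 genes that rose most and up to 3 that fell most in untreated against normal folds, the 6 with the smallest p in SOT against untreated folds, and a fixed list; some of these genes are not reported here. The genes, roles and lists were chosen with earlier results of these data known, and the genes outside the role lists were grouped by their deposited descriptions. Gene sequences and a promoter motif search were not used here. No library appeared to be deposited more than once.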

Additional observations from a re-analysis of the deposited data

How the results depend on the processing

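The number of genes that rose in untreated against normal folds (71) stayed within 1.5 times under every alternative, and ranged from 55 to 75 with 1 library left out. The number that fell (8) was 14 with DESeq2, 13 with only the 2 groups compared, and 4 to 9 with 1 library left out. Between SOT and untreated folds, DESeq2 gave 23 lower and 1 higher (AP4S1), limma on log2(FPKM + 1) gave 1 lower (LOC103346838), and leaving out 1 library gave 0 to 8 lower, with 8 without SOT replicate 1 and 1 without untreated replicate 1. Between SOT and normal folds, only the 2 groups compared gave 22 higher and 4 lower instead of 41 and 7, and leaving out 1 library gave 20 to 48 higher and 2 to 6 lower. The share of all genes called is not given here for most of these fits, so the counts are not set against it. The lysosome median minus the median of all genes moved little. For untreated against normal folds it was 0.524 as reported, 0.524 with DESeq2 and 0.529 with only the 2 groups compared. For SOT against normal folds it was 0.307 as reported and 0.312 with only the 2 groups compared. The cause was not tested.

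Same-numbered libraries had deviations that correlated at -0.0484 to 0.267, so the numbers were not taken as pairs. With the replicate block the counts were 69 higher and 8 lower for untreated against normal folds, 0 and 0 for SOT against untreated folds, and 33 and 6 for SOT against normal folds.

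The sign turned in 3 named genes, in comparisons where the gene was not called. With 1 library left out, the log2 fold change of NPC1 ranged from -0.15 to 0.15 for untreated against normal folds (0.15 without normal replicate 2, 0.01 without untreated replicate 2) and from -0.40 to 0.0016 for SOT against normal folds. That of GAA for SOT against normal folds ranged from -0.30 to 0.16, and was 0.011 with limma on log2(FPKM + 0.1) and 0.0053 on log2(FPKM + 1). That of SORT1 for the same groups ranged from -0.15 to 0.014, and was 0.0107 and 0.0103 with limma. Depth limits genes of few counts, such as LAMP3, AP3B2 and PSAPL1.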

Other observations

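Lysosome genes that carry a further KEGG entry in the deposited table were counted by that entry for untreated against normal folds, where 17.7% of all genes tested rose and 15.1% fell. Of 15 tested with Phagosome, 12 rose and none fell, with a median log2 fold change of 0.60. All 4 tested with Antigen processing rose, with a median of 2.03, and 5 of 6 with Autophagy rose, with a median of 0.80. Among 15 with Glycosaminoglycan degradation, 9 rose and 1 fell, and among 15 with Sphingolipid metabolism, 9 rose and 1 fell. These entries share genes with each other and with the roles, so the counts are not independent.

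ATP6V1H is in the Lysosome entry while the rest of the V1 sector was counted apart from it. ATP6V0E2, a subunit of the membrane part outside that entry, averaged 10.5 ± 2.34 CPM in SOT folds, 8.78 ± 1.7 in untreated folds and 23.1 ± 6.05 in normal folds, with its lowest mean in untreated folds, and ATP6V1B2 of the V1 sector averaged 147 ± 15.2 CPM in SOT folds, 198 ± 5.04 in untreated folds and 103 ± 13.8 in normal folds.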
